A study of Homo sapiens with 9 samples.

Results

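Respiratory complex I, the NADH dehydrogenase of the mitochondrial inner membrane, was examined through its nuclear genes in tumours with and without TAZ-4SA. Every row of the deposited table with a symbol of the form NDUFA, NDUFB, NDUFC, NDUFS, NDUFV, NDUFAB or NDUFAF followed by a number was taken, leaving out pseudogenes. This gave 45 of the 18364 genes in the table, 37 of them named as subunits and 8 as assembly factors. The rule was applied to gene names alone.

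Complex I takes electrons from NADH, passes them through a flavin and a chain of iron-sulphur clusters to ubiquinone, and pumps protons across the inner membrane as it does so. Its core is made of nuclear-encoded proteins that carry the redox centres and of mitochondrially encoded proteins that form the membrane arm, with many accessory subunits around them. Assembly factors bring the intermediates together and do not remain in the finished enzyme.

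LN229 cells, a long-established human glioblastoma line, were grown as intracranial tumours in nude mice, hosts without T cells, and 9 tumours were sequenced at the terminal stage. Of these, 6 came from LN229 cells carrying TAZ-4SA, a form of the co-activator TAZ, and 3 from LN229 cells with the empty vector (EV). The study asked how TAZ activation drives glioblastoma progression. The labels name no promoter, clone or animal for any tumour, so the p-values reflect only how these samples vary, which may be technical.

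WWTR1, which encodes TAZ, averaged 331 ± 74.6 CPM in TAZ-4SA tumours and 120 ± 3.17 CPM in EV tumours (SD, n = 6 and 3), with no overlap (exact two-sided permutation p = 0.0238, the smallest that 84 arrangements allow). CPM is a read count scaled to the size of its library. Reads of the transgene and of the resident gene cannot be separated. TAZ-4SA libraries held 3144861 to 31468135 reads with 2990 to 7365 genes at 0 reads, and EV libraries 17314672 to 21576264 reads with 505 to 622 genes at 0. The glioblastoma markers VIM, NES, CD44 and EGFR had reads in all 9 tumours, while OLIG2 was at 0 in 3, SOX2 in 2 and GFAP in 1 of the 6 TAZ-4SA tumours and in none of the EV tumours. Markers of other brain cells were summed by list. The 5 microglia and macrophage genes summed to 32.9 to 142 CPM in TAZ-4SA tumours and 13.7 to 24.1 CPM in EV tumours, with P2RY12 at 0 in every TAZ-4SA tumour and CD68 the one of the 3 tested that rose. Of those 5 genes, 2 to 4 were at 0 reads in each TAZ-4SA tumour and 1 in each EV tumour. The 6 neuronal genes summed to 84.5 to 1291 CPM in TAZ-4SA tumours and 29.7 to 132.7 CPM in EV tumours, and SYT1 rose. The neuronal sum was 819 and 1291 CPM in TAZ-4SA tumours 5 and 6 and at most 200 CPM in tumours 1 to 4. In tumours 1 to 4, 1 to 3 of the 6 neuronal genes were at 0 reads, and none was in an EV tumour. The 5 oligodendrocyte genes summed to 29.9 to 377 CPM in TAZ-4SA tumours and 505 to 622 CPM in EV tumours, with MOG and MOBP at 0 in every TAZ-4SA tumour. The 6 endothelial genes summed to 0.101 to 13.2 CPM in TAZ-4SA tumours and 12.04 to 16.9 CPM in EV tumours, and the 3 astrocyte genes to 6.66 to 62.1 CPM in TAZ-4SA tumours and 20.1 to 40.4 CPM in EV tumours. No oligodendrocyte, endothelial or astrocyte gene tested was called by limma, and the neuronal, endothelial and astrocyte sums overlapped between the groups. The part of these cells in the results below was not tested. In a bulk tumour, fewer cells of a type and less RNA per cell cannot be told apart. The host is mouse and these are human genes, so their reads cannot be assigned to LN229 cells or to host cells. The sums are therefore not a measure of cell composition.

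Of the complex I genes, 44 had a mean of at least 1 CPM and were tested. Calls rest on limma with Benjamini-Hochberg adjustment over 15578 genes at 0.05, on deposited log2 values that include a prior of 0.145 CPM. Among the 36 subunits tested, 7 fell in TAZ-4SA tumours and 1 rose. Over all genes tested, 13.3% were called lower and 9.02% higher. For the 44 members together the share called lower was 15.9%, close to that of all genes. After quantile normalization 10.4% of all genes were called lower and 12.3% higher, and 6 subunits were lower and 1 higher. Those that fell included NDUFV1, NDUFS3, NDUFA13, NDUFB7, NDUFB10 and NDUFS5, and the 1 that rose was NDUFC2. None of the 8 assembly factors was called in either direction. The median log2 fold change was -0.92 for the subunits and -1.17 for the assembly factors, against -0.85 for all genes tested. The assembly factors' value leans on TAZ-4SA tumour 3, where their median log2 difference from the EV mean was -6.17. It was between -0.18 and 0.47 in tumours 1, 2, 4, 5 and 6, where all genes tested gave -1.21 to -0.18. The 6 TAZ-4SA tumours lay below all 3 EV tumours for 12 subunits, where 21.3% of all genes did so, and above all 3 for 1 subunit, where 10.8% did so. All 7 lower calls were lost when the trend of each tumour's values on transcript GC content or on transcript length was removed, and NDUFC2 remained called higher under both. Over all genes, 4.77% were then called lower and 11% higher without the GC trend, and 7.27% lower and 13.1% higher without the length trend. Those values are given with each gene below.

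**Figure D1:**
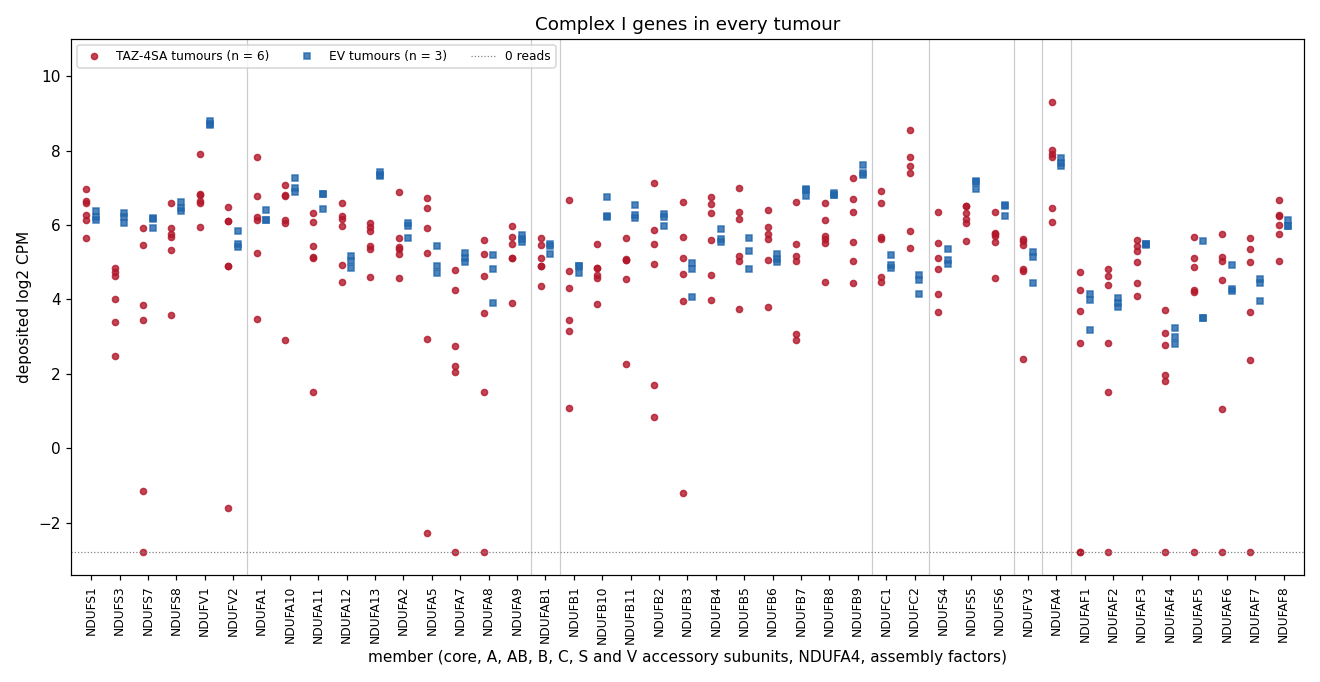
Deposited log2 CPM (vertical axis) of complex I genes in each TAZ-4SA tumour (red circles, left) and each EV tumour (blue squares, right), with genes along the horizontal axis ordered by role. The dotted line is the value of 0 reads. EV tumours lie close together for most genes, whereas TAZ-4SA tumours spread widely and reach 0 reads for several assembly factors.

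**Figure D2:**
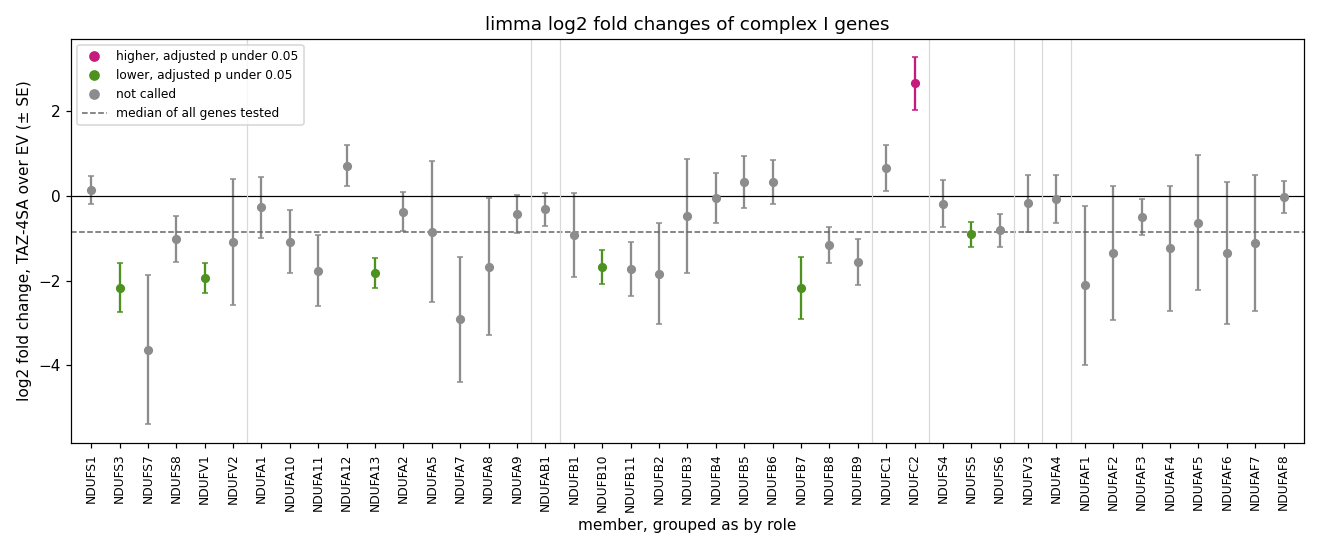
limma log2 fold change of TAZ-4SA over EV with its standard error (vertical axis) for the same genes. Coloured points passed an adjusted p of 0.05, with NDUFC2 the one above 0. The dashed line is the median of all genes tested, -0.85.

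Values per tumour are given below in the order of tumours 1 to 6 for TAZ-4SA and 1 to 3 for EV. The nuclear core subunits are described first, beginning with those of the NADH-oxidising tip of the enzyme. NDUFV1 (Entrez 4723, chr11:67606936-67612554) binds the flavin that accepts electrons from NADH. It had 100.3, 111, 114, 61.2, 239 and 96.0 CPM in TAZ-4SA tumours, against 419, 411 and 441 CPM in EV tumours. The groups did not overlap, and the highest TAZ-4SA value, in tumour 5, was well below the lowest EV value. The log2 fold change was -1.94 ± 0.36 (SE; limma adjusted p = 0.00273), which is -1.09 relative to the median of all genes. Removing the GC trend gave 0.016 ± 0.38 and removing the length trend -0.73 ± 0.37, with neither called. NDUFV2, which holds an iron-sulphur cluster beside the flavin site, had 69.1, 29.8, 0.184, 88.6, 29.7 and 68.2 CPM in TAZ-4SA tumours, against 44.3, 42.2 and 57.2 CPM in EV tumours. Its groups overlapped, with 3 TAZ-4SA tumours above and 3 below every EV tumour, and the value in tumour 3 stood on 3 reads. The log2 fold change was -1.09 ± 1.48 (limma adjusted p = 0.612). NDUFS1, the largest subunit of this tip and a carrier of several iron-sulphur clusters, had 96.4, 124, 99.999, 70.6, 76.7 and 50.1 CPM in TAZ-4SA tumours, against 82.9, 70.3 and 74.5 CPM in EV tumours. The EV values lay inside the TAZ-4SA range. NDUFS1 had a log2 fold change of 0.13 ± 0.33 (limma adjusted p = 0.796).

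The core subunits described next belong to the module that hands electrons to ubiquinone. NDUFS3 (Entrez 4722, chr11:47579074-47584562), a protein of that module, had 28.8, 10.4, 5.47, 15.8, 26.6 and 24.5 CPM in TAZ-4SA tumours, against 65.9, 73.9 and 79.1 CPM in EV tumours. It was lower in every TAZ-4SA tumour, by -2.17 ± 0.57 on the log2 scale (limma adjusted p = 0.0181), and by -0.83 ± 0.56 with the GC trend removed and -0.88 ± 0.57 with the length trend removed. Leaving out EV tumour 1, 2 or 3 took its limma adjusted p to 0.0804, 0.0944 or 0.0891.

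NDUFS7, which holds the last iron-sulphur cluster before ubiquinone, had 10.7, 14.1, 60.8, 0, 44.2 and 0.306 CPM in TAZ-4SA tumours, against 60.7, 72.8 and 71.2 CPM in EV tumours. TAZ-4SA tumour 3 was just above the lowest EV tumour, while tumour 4 had 0 reads and tumour 6 had 1. Its log2 fold change of -3.63 ± 1.76 was the furthest from 0 of all members, and it was not called (limma adjusted p = 0.154). NDUFS8, the carrier of a pair of iron-sulphur clusters in the same chain, had 39.95, 11.8, 59.8, 54.2, 96.3 and 50.7 CPM in TAZ-4SA tumours, against 88.3, 97.9 and 82.8 CPM in EV tumours. Tumour 5 lay within the EV range and the other 5 TAZ-4SA tumours below it. The log2 fold change was -1.01 ± 0.54 (limma adjusted p = 0.191).

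Among accessory subunits, 4 of the 28 tested (14.3%) were called lower, a share near the 13.3% of all genes tested. NDUFA13 (Entrez 51079, chr19:19516225-19528198), also known as GRIM-19, had 66.0, 42.8, 24.2, 40.5, 56.5 and 61.7 CPM in TAZ-4SA tumours, against 159, 171 and 161 CPM in EV tumours. Its groups were far apart, and the log2 fold change was -1.82 ± 0.36 (limma adjusted p = 0.00369). Without the GC trend it was 0.26 ± 0.57, and without the length trend -0.52 ± 0.38. NDUFB10 (Entrez 4716, chr16:1959538-1961975), a subunit of the membrane arm, had 28.3, 28.8, 23.7, 25.016, 14.6 and 44.6 CPM in TAZ-4SA tumours, against 74.0, 107 and 75.5 CPM in EV tumours. The difference of -1.69 ± 0.41 on the log2 scale was called (limma adjusted p = 0.0112). The value was 0.22 ± 0.66 without the GC trend and -0.53 ± 0.47 without the length trend. Its limma adjusted p was 0.055 without EV tumour 1 and 0.0994 without EV tumour 2.

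NDUFB7 (Entrez 4713, chr19:14566078-14572066), which lies on the side of the membrane arm that faces the intermembrane space, had 7.32, 8.28, 36.0, 32.6, 98.2 and 44.6 CPM in TAZ-4SA tumours, against 109, 124 and 122 CPM in EV tumours. TAZ-4SA tumour 5 was close to the EV range and tumours 1 and 2 were lowest. The log2 fold change was -2.17 ± 0.72 and the call was marginal (limma adjusted p = 0.0484), with 0.0637 after quantile normalization and a call in 1 of the 9 fits that left out 1 tumour. NDUFB7 was at 0.22 ± 0.56 without the GC trend and at -1.15 ± 0.75 without the length trend. NDUFS5 (Entrez 4725, chr1:39026350-39034615), an accessory subunit on that same side, had 80.0, 66.3, 91.7, 71.0, 47.0 and 91.4 CPM in TAZ-4SA tumours, against 126, 145 and 141 CPM in EV tumours. Its log2 fold change of -0.91 ± 0.30 (limma adjusted p = 0.0464) was -0.06 relative to the median of all genes, so it fell by about as much as the typical gene of the table. Without the trends it was -0.32 ± 0.37 (GC) and 0.12 ± 0.38 (length). The limma adjusted p of NDUFS5 was 0.0787 after quantile normalization, and 0.144, 0.192 and 0.154 without EV tumour 1, 2 and 3.

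**Figure D3:**
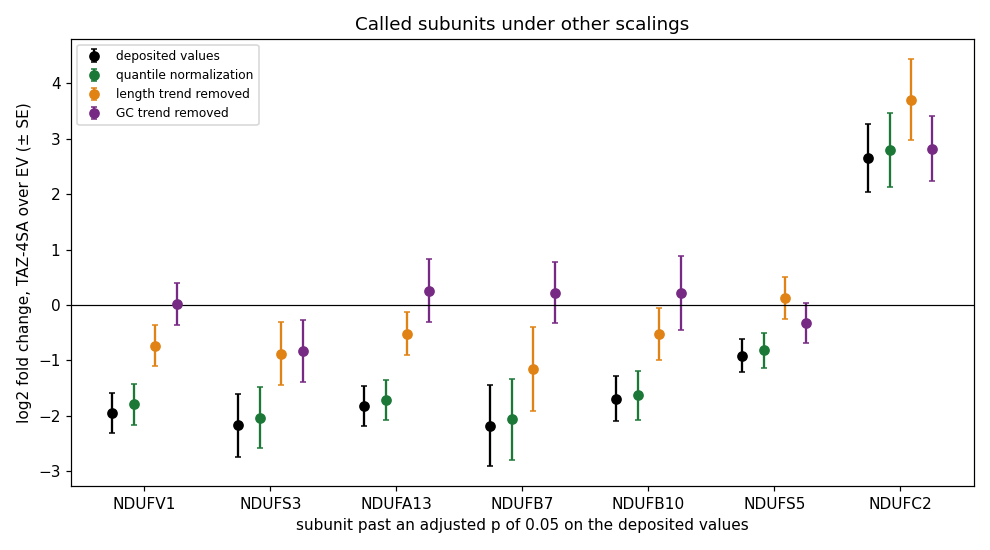
limma log2 fold change of TAZ-4SA over EV with its standard error (vertical axis) for called subunits, on the deposited values, after quantile normalization, and after each tumour's trend on transcript length or GC content was removed. The lower subunits shown move to 0 or towards it without the trends, whereas NDUFC2 stays above 2.

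NDUFC2 (Entrez 4718, chr11:78068297-78079862), an accessory subunit of the membrane arm, was the exception in direction. It had 228, 376, 41.2, 168, 56.5 and 190.4 CPM in TAZ-4SA tumours, against 22.9, 17.6 and 25.1 CPM in EV tumours. Every TAZ-4SA tumour was above every EV tumour, with tumours 3 and 5 the closest to them. Mean CPM was 8.08 times as high in TAZ-4SA tumours as in EV tumours, and the log2 fold change was 2.65 ± 0.62 (limma adjusted p = 0.00949). It was 2.82 ± 0.59 with the GC trend removed (limma adjusted p = 0.0047) and 3.71 ± 0.73 with the length trend removed (limma adjusted p = 0.0025). NDUFC2 stayed called higher in all 9 fits that left out 1 tumour and in 15 of 18 other settings. The exceptions were the 2 fits restricted to tumours 1 to 3 of each group and the test against a 2-fold minimum. In RefSeq, the whole gene lies inside the read-through gene NDUFC2-KCTD14, and reads of the pair could not be separated here.

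NDUFC1, another accessory subunit of the membrane arm, had 96.1, 119.8, 23.9, 49.5, 22.1 and 51.3 CPM in TAZ-4SA tumours, against 28.5, 36.7 and 30.2 CPM in EV tumours. Tumours 3 and 5 were below the EV range and the other 4 TAZ-4SA tumours above it. The log2 fold change of 0.66 ± 0.55 was not called (limma adjusted p = 0.399), while with the length trend removed NDUFC1 was 1.87 ± 0.58 higher (limma adjusted p = 0.0326). NDUFC1 overlaps NAA15 over 1047 bases in RefSeq, and NAA15 averaged 115 CPM in TAZ-4SA tumours and 25.6 CPM in EV tumours. NDUFA12, an accessory subunit near the ubiquinone-side module, had 95.6, 71.9, 29.9, 75.6, 22.1 and 62.4 CPM in TAZ-4SA tumours, against 28.3, 32.6 and 36.0 CPM in EV tumours. Again tumours 1, 2, 4 and 6 were above the EV range, tumour 3 was within it and tumour 5 below it. The log2 fold change of NDUFA12 was 0.71 ± 0.49 (limma adjusted p = 0.303) and, with the length trend removed, 1.82 ± 0.51 (limma adjusted p = 0.0203). NDUFC1 and NDUFA12 were each called higher in 2 of 18 other settings, the length trend among them. Each was called in 0 of the 9 fits that left out 1 tumour.

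A further 5 accessory subunits were lower in all 6 TAZ-4SA tumours than in any EV tumour and missed the threshold. They were NDUFB9, with a log2 fold change of -1.56 ± 0.55 (limma adjusted p = 0.0584), NDUFB8, with -1.16 ± 0.42 (limma adjusted p = 0.0654), NDUFB11, with -1.72 ± 0.64 (limma adjusted p = 0.0706), NDUFA11 and NDUFA7. NDUFB8, a membrane-arm subunit whose protein is often used as a readout of assembled complex I, had 69.6, 95.8, 52.3, 45.4, 48.7 and 22.0 CPM in TAZ-4SA tumours, against 112, 112 and 116 CPM in EV tumours. With the GC trend removed, NDUFB8 was at 0.22, NDUFB11 at 0.21 and NDUFA11 at 0.35, all 3 turned in direction and not called, while NDUFB9 was at -0.30 and NDUFA7 at -1.41. Those 3 were also above 0 with both trends removed and below 0 with the length trend alone removed. NDUFA11 and NDUFA7 had single TAZ-4SA tumours at 2.72 CPM (tumour 2) and 0 CPM (tumour 4). NDUFB11 overlaps RBM10 by 271 bases in RefSeq, and RBM10 averaged 53.0 CPM in TAZ-4SA tumours and 199 CPM in EV tumours. By name, 1 of 10 NDUFA subunits tested other than NDUFA4 was called lower, 2 of 11 NDUFB subunits, 1 of 3 accessory NDUFS subunits, and neither NDUFV3 nor NDUFAB1, the mitochondrial acyl carrier protein.

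NDUFA3 was the member left untested. It had 5.85 CPM in TAZ-4SA tumour 2 and at most 0.611 CPM in the other 5 TAZ-4SA tumours, 3 of them at 0, and between 0.0645 and 0.281 CPM in EV tumours. TFPT, which overlaps NDUFA3 in RefSeq, was also near 0, with means of 0.970 CPM in TAZ-4SA tumours and 0.0700 CPM in EV tumours. RPS18, the lowest cytosolic ribosomal protein gene in each EV tumour, was at 0.234 to 0.523 CPM there. The median of that list was 729 to 959 CPM in EV tumours. Whether such low counts reflect expression was not tested. NDUFA6 was not analysed here.

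Levels per length set the members apart within a tumour. Divided by the length of the principal GENCODE transcript, subunit means ran from 4.84 CPM per kb for NDUFA9 to 137 CPM per kb for NDUFS5 in TAZ-4SA tumours, and from 5.95 for NDUFA9 to 252 for NDUFS5 in EV tumours, over the 36 tested. NDUFB9 (103 in TAZ-4SA and 246 in EV tumours) and NDUFB7 (71.3 in TAZ-4SA and 223 in EV tumours) followed NDUFS5 in EV tumours, with NDUFV1 (58.3 in TAZ-4SA and 206 in EV tumours) next. NDUFC2 was near the bottom in EV tumours at 8.67 CPM per kb, above NDUFA9 and NDUFV3 alone, and reached 70.1 CPM per kb in TAZ-4SA tumours.

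The upstream sequences of called subunits are shown because members of the ETS family, together with NRF1 and YY1, are known regulators of respiratory chain genes. RefSeq promoter sequence (GRCh38.p14) was matched for 39 of the 45 genes. In the 250 bases upstream of the start, the ETS core CCGGAAG, on either strand, occurred in 7 of 39 genes (17.9%), against 17.1% of 12112 tested genes with a promoter sequence. The palindromic NRF1 motif occurred in 1 gene, NDUFB4 (2.56%, against 2.17%), and YY1's AAGATGGC in none (against 2.25%). No difference between these shares was tested. Among called subunits with a promoter sequence, NDUFS3, NDUFA13 and NDUFB7 held the ETS core, and NDUFV1 and NDUFB10 did not. The remaining holders of the core were NDUFA1, NDUFS1, NDUFAF4 and NDUFAF8, and none of them was called. Their log2 fold changes were -0.28, 0.13, -1.24 and -0.03. The called NDUFS5 and NDUFC2 were not among the 39. The 150 bases before the start are printed on the gene's own strand, 5′ to 3′, with each match to the ETS core or its reverse complement in capitals. They cover chr11:47578924-47579073 (plus strand) for NDUFS3, chr19:19516075-19516224 (plus) for NDUFA13, chr19:14572067-14572216 (minus) for NDUFB7 and chr11:67606786-67606935 (plus) for NDUFV1.
NDUFS3: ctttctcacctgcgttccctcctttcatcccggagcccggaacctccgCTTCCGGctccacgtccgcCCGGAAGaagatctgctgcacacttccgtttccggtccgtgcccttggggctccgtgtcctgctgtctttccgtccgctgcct
NDUFA13: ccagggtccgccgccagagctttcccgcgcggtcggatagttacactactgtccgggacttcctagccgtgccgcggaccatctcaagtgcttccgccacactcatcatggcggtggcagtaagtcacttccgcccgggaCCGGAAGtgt
NDUFB7: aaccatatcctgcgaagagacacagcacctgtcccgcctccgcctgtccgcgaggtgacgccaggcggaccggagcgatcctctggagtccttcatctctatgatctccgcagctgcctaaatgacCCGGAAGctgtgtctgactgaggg
NDUFV1: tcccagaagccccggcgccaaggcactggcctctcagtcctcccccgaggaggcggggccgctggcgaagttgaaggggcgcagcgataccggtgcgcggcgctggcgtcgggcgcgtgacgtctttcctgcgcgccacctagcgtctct
NDUFS3 has the match on both strands, NDUFA13 and NDUFB7 once each within 30 bases of the start, and NDUFV1, which fell as they did, has none.

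The 8 assembly factors were uneven among TAZ-4SA tumours. Of the 8, 5 (62.5%) had 0 reads in TAZ-4SA tumour 3, where 26.9% of all genes tested did. In tumours 2 and 4, 1 of the 8 (12.5%) was at 0, against 30.8% and 25.7% of all genes tested, and in tumours 1, 5 and 6 none was, against 18.2%, 7.75% and 16.7%. No assembly factor was at 0 in an EV tumour. The median SD of log2 CPM over the 8 genes was 3.03 in TAZ-4SA tumours and 0.263 in EV tumours, against 1.10 and 0.163 for the subunits and 1.499 and 0.274 for all genes tested. NDUFAF3 and NDUFAF8, with SDs of 0.60 and 0.56 in TAZ-4SA tumours, lay below the median of all genes. NDUFAF1, which works on the early membrane-arm intermediate, had 18.9, 26.2, 0, 0, 6.997 and 12.8 CPM in TAZ-4SA tumours, against 15.7, 17.6 and 8.90 CPM in EV tumours. Its log2 fold change of -2.12 ± 1.88 rests on the 2 tumours at 0 and was not called (limma adjusted p = 0.429). NDUFAF2, which acts late in assembly, had 20.8, 2.72, 0, 28.2, 6.997 and 24.5 CPM in TAZ-4SA tumours, against 13.8, 14.9 and 16.4 CPM in EV tumours. It was above the EV range in 3 TAZ-4SA tumours and below it in 3 (log2 fold change -1.35 ± 1.58, limma adjusted p = 0.553).

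NDUFAF3 and NDUFAF4 act together on the ubiquinone-side module. NDUFAF3 had 16.9, 43.4, 39.6, 32.0, 48.1 and 21.7 CPM in TAZ-4SA tumours, against 44.97, 45.003 and 43.9 CPM in EV tumours. It was below EV in 5 tumours and above in 1 (log2 fold change -0.50 ± 0.43, limma adjusted p = 0.411). NDUFAF3 overlaps DALRD3 over 1054 bases in RefSeq, and DALRD3 averaged 7.57 CPM in TAZ-4SA tumours and 35.8 CPM in EV tumours. NDUFAF4 had 3.74, 8.48, 0, 13.0, 6.72 and 3.36 CPM in TAZ-4SA tumours, against 6.79, 7.79 and 9.22 CPM in EV tumours. It was the lowest of the 8 on average, and the groups overlapped (log2 fold change -1.24 ± 1.48, limma adjusted p = 0.561). NDUFAF5, an arginine hydroxylase that modifies NDUFS7, had 29.002, 50.7, 0, 18.1, 18.8 and 34.5 CPM in TAZ-4SA tumours, against 11.1, 11.2 and 46.9 CPM in EV tumours. Here the EV tumours themselves differed, with tumour 3 well above the others (log2 fold change -0.63 ± 1.60, limma adjusted p = 0.794).

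NDUFAF6, which takes part in early assembly, had 54.0, 0, 35.2, 1.94, 22.9 and 32.7 CPM in TAZ-4SA tumours, against 19.2, 18.4 and 30.2 CPM in EV tumours. Its zero fell in tumour 2 and not in tumour 3 (log2 fold change -1.35 ± 1.67, limma adjusted p = 0.578). In RefSeq it overlaps TP53INP1 over 23407 bases, and TP53INP1 averaged 19.8 CPM in TAZ-4SA tumours and 10.4 CPM in EV tumours. NDUFAF7, a protein arginine methyltransferase, had 40.5, 31.8, 0, 49.997, 5.04 and 12.5 CPM in TAZ-4SA tumours, against 21.5, 23.3 and 15.5 CPM in EV tumours. It lay above EV in 3 tumours and below in 3 (log2 fold change -1.11 ± 1.60, limma adjusted p = 0.637). NDUFAF7 overlaps PRKD3 over 20864 bases in RefSeq, and PRKD3 averaged 91.8 CPM in TAZ-4SA tumours and 57.1 CPM in EV tumours. NDUFAF8, a partner of NDUFAF5, had 76.8, 32.8, 76.0, 64.2, 101 and 53.5 CPM in TAZ-4SA tumours, against 62.8, 62.6 and 70.3 CPM in EV tumours. Its log2 fold change was -0.03 ± 0.37 (limma adjusted p = 0.955). With the GC trend removed, NDUFAF8 was 1.91 ± 0.37 higher in TAZ-4SA tumours (limma adjusted p = 0.0031), and it was not called on the deposited values or after quantile normalization.

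Other complex I assembly factors, from a list of 12, were all lower by estimate, with a median log2 fold change of -1.92, and 1 was called. Of all 15578 genes tested, 10495 were lower by estimate, the median was -0.85 and 13.3% were called lower. FOXRED1, an assembly factor with a flavin-binding fold, had 9.77, 5.05, 12.8, 25.5, 24.9 and 2.14 CPM in TAZ-4SA tumours, against 82.7, 75.1 and 63.4 CPM in EV tumours. The groups did not overlap (log2 fold change -2.88 ± 0.79, limma adjusted p = 0.0214). Without EV tumour 1, 2 or 3 the limma adjusted p of FOXRED1 was 0.116, 0.107 or 0.080. Its log2 fold change was -1.26 with the GC trend removed and -1.65 with the length trend removed (limma adjusted p = 0.168), called in neither. ACAD9, ECSIT and TIMMDC1 were between -2.74 and -2.13 and were not called, with adjusted p between 0.11 and 0.302 in limma.

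NDUFA4 carries a complex I name and is now regarded as a subunit of cytochrome c oxidase, complex IV. It had 228, 626, 88.2, 239.8, 67.2 and 260.1 CPM in TAZ-4SA tumours, against 204, 221 and 191 CPM in EV tumours. Tumours 3 and 5 were low and the other 4 high, and the log2 fold change was -0.08 ± 0.57 (limma adjusted p = 0.929). Its paralog NDUFA4L2, known as a hypoxia-induced protein that lowers complex I activity, is outside the naming rule. NDUFA4L2 had 0, 0, 0, 16.9, 1.96 and 0 CPM in TAZ-4SA tumours, against 37.3, 51.1 and 76.2 CPM in EV tumours. It was at 0 reads in 4 of 6 TAZ-4SA tumours and lower in all 6. Mean CPM in TAZ-4SA tumours was 0.0573 of that in EV tumours, and NDUFA4L2 was called lower (limma adjusted p = 0.0142). The call was lost without EV tumour 1, 2 or 3 (limma adjusted p = 0.053, 0.061 and 0.063) and with the GC trend removed (0.086).

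Beside 13.3% lower and 9.02% higher over all genes tested, none of the 7 subunits encoded by mitochondrial DNA was called in either direction. Their median log2 fold change was 0.46, where that of all genes was -0.85, with 6 of 7 above 0. Summed, they held 77066, 78739, 25444, 127070, 9980.4 and 101577 CPM in TAZ-4SA tumours, against 29340.0, 25480 and 40410.3 CPM in EV tumours. TAZ-4SA tumours 1, 2, 4 and 6 were all above the EV range, tumour 3 just below the lowest EV tumour and tumour 5 far below it. ND1, part of the junction to the membrane arm, had a log2 fold change of 1.21 ± 0.72 (limma adjusted p = 0.241), and ND4, a proton-pumping subunit, 0.71 ± 0.69 (limma adjusted p = 0.474). Summed nuclear subunits were 2246, 3220, 1582, 2001, 1630 and 2270.0 CPM in TAZ-4SA tumours, against 3088, 3295 and 3127 CPM in EV tumours. Tumours 3 and 5 were lowest in the nuclear sum as in the mitochondrial one, and tumour 2 alone reached the EV range. Without NDUFA4, the nuclear sums were 2018, 2594, 1494, 1761, 1563 and 2009.9 CPM in TAZ-4SA tumours, against 2884, 3074 and 2937 CPM in EV tumours, and no TAZ-4SA tumour reached the EV range. The difference between mitochondrial and nuclear subunits was not tested.

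Within TAZ-4SA, tumour 5 had 33 of the 37 subunits (89.2%) below every EV tumour and 1 (2.70%) above, where 46.9% of all genes tested were below and 36.8% above. Tumour 3 had 26 (70.3%) below and 4 (10.8%) above, where 56.5% and 32.6% of all genes were. In tumours 1, 2, 4 and 6, between 19 and 23 subunits (51.4% to 62.2%) were below and between 10 and 16 (27.0% to 43.2%) above, against 52.2% to 60.8% and 31.3% to 36.7% of all genes. In those 4 tumours, the medians of members with low and with high transcript GC content lay on opposite sides of the EV mean. The counts of subunits below and above EV were not divided by GC content. For the 25 members with GC under 50%, the median log2 difference from the EV mean was 0.48, 0.71, -1.02, 0.23, -0.67 and 0.38 in TAZ-4SA tumours 1 to 6. For the 19 members with GC of 50% or more it was -1.33, -1.93, -0.74, -1.75, -0.9999 and -1.26. All tested genes gave 0.64, 0.34, -0.09, 0.56, 0.22 and 0.50 under 50% GC, and -1.40, -2.57, -0.88, -1.84, -0.44 and -1.48 at 50% or more. In tumours 3 and 5 the low-GC members were thus lower than low-GC genes as a whole.

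**Figure D4:**
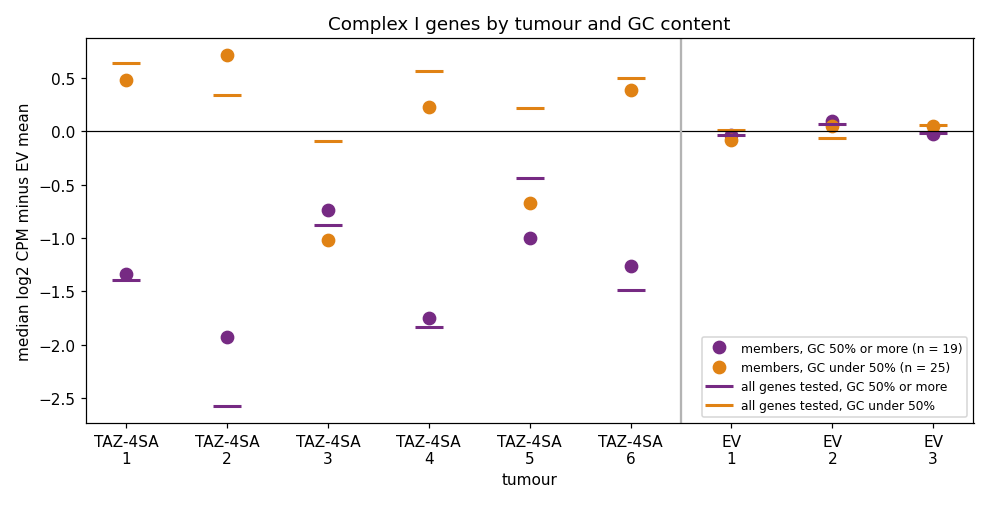
Median log2 CPM minus the EV mean (vertical axis) in each tumour for complex I genes (circles) and all genes tested (bars), split at a transcript GC content of 50%. The 2 GC classes of complex I genes lie well apart in TAZ-4SA tumours 1, 2, 4 and 6, and those of all genes lie apart in every TAZ-4SA tumour. In EV tumours all classes lie near 0. In tumours 3 and 5 both member classes are below 0.

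Across members, log2 fold change ran against transcript GC content. Spearman's rho was -0.51 over 44 members and -0.52 over 13952 tested genes with a value, and for transcript length it was 0.12 and 0.23. Genes share libraries and are not independent replicates, so these are descriptions. Of the 19 members at 50% GC or more, 6 were called lower, where 21.6% of all tested genes in that class were. The median log2 fold change was -1.67 over the 19, against -1.68 for all tested genes in the class. Of the 25 members under 50%, NDUFS5 was called lower and NDUFC2 higher, where 4.80% of all tested genes in that class were lower and 16.1% higher. The median was -0.48 over the 25, against 0.10 for the class. NDUFS7 (66.5% GC) and NDUFB7 (64.97%) were the most GC-rich members tested, and NDUFAF8 (60.2%) lay furthest above the trend among those at 60% or more. With the GC trend removed, the median of the 36 subunits was -0.042, and that of all genes -0.015. With the length trend removed the medians were 0.11 and 0.0035.

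**Figure D5:**
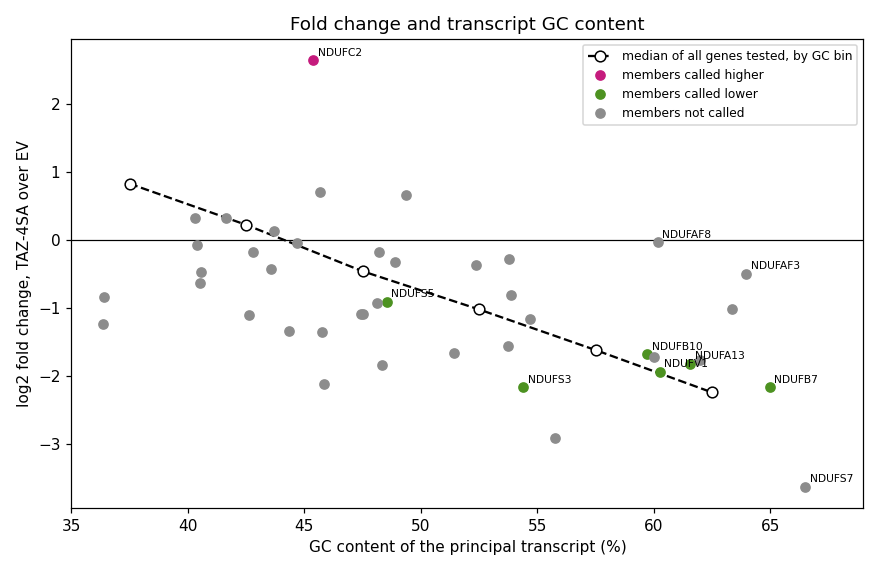
log2 fold change of TAZ-4SA over EV (vertical axis) against the GC content of the principal transcript (horizontal axis) for members tested, with the median of all genes tested in 6 GC bins, the outer 2 of them open-ended (dashed line). Of the members called lower, NDUFS5 alone has GC under 50%, and NDUFC2 lies well above the line.

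Regulators of mitochondrial gene expression were read from a list of 12, of which 1 was called. TFAM, which packages and transcribes mitochondrial DNA, had 83.9, 93.4, 51.5, 105, 45.1 and 71.2 CPM in TAZ-4SA tumours, against 21.8, 20.9 and 30.9 CPM in EV tumours. It rose in every TAZ-4SA tumour (log2 fold change 1.56 ± 0.37, limma adjusted p = 0.011), with tumours 3 and 5 the lowest of the 6. The call on TFAM was lost with the GC trend removed (log2 fold change 0.72) and without EV tumour 1 or 2 (limma adjusted p = 0.067 and 0.071). NRF1, at -2.69 ± 1.66, and GABPA, the ETS factor of this group, at 0.97 ± 1.48, were not called (limma adjusted p = 0.255 and 0.659).

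In the rest of the respiratory chain, 0 of 4 complex II, 1 of 9 complex III, 1 of 10 nuclear complex IV and 2 of 17 nuclear complex V genes were called lower, and none higher, beside 13.3% lower and 9.02% higher over all genes tested. Those called were CYC1 (log2 fold change -1.68), COX4I1 (-1.10), ATP5F1B (-1.28) and ATP5F1E (-3.88). With the GC trend removed, CYC1 was at 0.42, COX4I1 at 0.31 and ATP5F1B at -0.34, none called, whereas ATP5F1E was at -4.70 ± 0.99 and stayed called (limma adjusted p = 0.0053). With the length trend removed ATP5F1E was at -2.62 and not called (limma adjusted p = 0.067). All 4 calls were lost without EV tumour 1, 2 or 3, with 2 EV tumours left in each fit. Log2 fold changes were then -1.72 to -1.62 for CYC1 and -1.14 to -1.05 for COX4I1. They were -1.29 to -1.27 for ATP5F1B and -3.94 to -3.83 for ATP5F1E, all close to those with 3 EV tumours. Median log2 fold changes were 0.02 for complex II, -0.70 for complex III, -0.40 for complex IV and -0.60 for complex V, beside -0.92 for the complex I subunits. Of 75 mitochondrial ribosomal protein genes, 5 (6.67%) were called lower and 1 higher, with a median of -0.80, and of 77 cytosolic ribosomal protein genes tested, 29 (37.7%) were called lower and none higher, with a median of -0.84. No difference between these lists and complex I was tested.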

How the data were processed

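Libraries came from a SMART-Seq mRNA HT kit and Nextera XT, per the labels' protocols, which keeps no strand. Reads on overlapping genes therefore cannot be assigned by strand, and how they were counted is not given. Per the submitters' processing notes, HISAT2, edgeR and GRCh38 were used, in roles not stated. Which reads were counted, on what annotation, and whether mouse reads were removed is not given in the sources used here. Log2 values as the authors deposited them were read, from the numbers, as log2 of CPM plus a prior of 0.145 CPM. With that prior subtracted, 100% of values under 5000 reads were multiples of 1 read to within 0.1 read. Reads are not independent molecules, so depth describes counting error only.

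The main test, in limma 3.58.1 under R 4.3.3 with mean-variance trend and robust moderation, compared 6 TAZ-4SA with 3 EV tumours over 15578 genes whose mean reached 1 CPM with the prior included, adjusted by Benjamini-Hochberg at 0.05. Fold changes are TAZ-4SA minus EV on the deposited scale, where a tumour at 0 reads weighs heavily. CPM values have the prior removed. Every pair of tumours within a group differed beyond sampling noise. Length and GC content are medians over principal protein-coding transcripts of GENCODE 29, and trends were removed per tumour by lowess. Promoters and coordinates are from RefSeq (GRCh38.p14).

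The members and lists were chosen with earlier results of these data known. Values are given per tumour for core subunits, called members, the member with the largest change that was not called, assembly factors, NDUFA4 and NDUFA4L2; NDUFC1, NDUFA12, NDUFB8 and genes of other lists were named after their values were seen. Results for 1 gene are not reported here. Alternatives were pseudocounts of 0.1 and 2 CPM, other scalings, filters, array weights, voom, thinned reads, left-out tumours, the replicate block, a 2-fold minimum and the trends; the GC trend and the sum without NDUFA4 were added after seeing the data.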

Additional observations from a re-analysis of the deposited data

Results flagged for a closer look

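In 3 of the 23 genes looked at, 1 TAZ-4SA tumour stood apart from the other 5, and in each it was tumour 3. Dixon's ratio of gap to range, taken on the deposited log2 values and not on CPM, was past its 95% critical value. On that scale a tumour at or near 0 reads weighs heavily. NDUFV2 had 0.184 CPM there (3 reads), where the next lowest TAZ-4SA tumour had 29.7 CPM, a ratio of 0.805. NDUFAF4 had 0 reads there, where the next lowest had 3.36 CPM, a ratio of 0.707. NDUFAF5 had 0 reads there, where the next lowest had 18.1 CPM, a ratio of 0.825. Chance flags about 1 in 20 groups. Tumour 3 had 16030692 reads in all, a depth similar to that of the EV libraries.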

How the results depend on the processing

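The number of subunits called lower was 15 with array weights, whose estimation stopped before convergence, 14 with voom on the recovered reads, 4 with the replicate block, 3 to 8 with 1 tumour left out (3, 3 and 4 without EV tumours 1, 2 and 3), and 0 against a 2-fold minimum or with the length trend, the GC trend or both removed. NDUFV1 and NDUFA13 were lower in all 9 fits with 1 tumour left out, NDUFB10 in 7, NDUFS3 in 6, NDUFS5 in 3 and NDUFB7 in 1. A fit without an EV tumour has only 2 EV tumours, so a call lost there need not rest on the tumour left out. The number called higher was 2 with array weights, 3 and 2 with the length trend and both trends removed, and 0 with the replicate block, in tumours 1 to 3 unblocked and against the 2-fold minimum. Assembly factors called higher numbered 1 with the GC trend or both removed. Over all genes, lower calls were 3384 with no filter, 967 at a mean of 10 CPM, 5630 with array weights, 3646 with voom, 1014, 665 and 669 with the length, GC and both trends removed, 793 against the 2-fold minimum and 852 to 2688 with 1 tumour left out; higher calls were 2531 with array weights, 562 with the block, 472 against the 2-fold minimum and 799 to 1685 with 1 tumour left out. Quantile normalization gave 1920 higher and 1624 lower calls, against 1405 and 2079, and moved the median of all genes to -0.15. The subunits' median was 0.11, -0.042 and 0.0095 with the length, GC and both trends removed.

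Directions turned with the GC trend removed for NDUFV1 (0.016), NDUFS8 (1.23), NDUFA13 (0.26), NDUFB10 (0.22), NDUFB7 (0.22), NDUFAF3 (1.80) and NDUFAF8 (1.91), and with both trends removed for NDUFV1 (0.16), NDUFS1 (-0.29), NDUFS8 (1.25), NDUFA13 (0.41), NDUFB10 (0.18), NDUFAF3 (1.92) and NDUFAF8 (1.78). With the length trend removed they turned for NDUFV2 (0.19), NDUFS8 (0.20), NDUFS5 (0.12), NDUFAF3 (0.72), NDUFAF7 (0.069), NDUFAF8 (1.06) and NDUFA4 (1.11). Without TAZ-4SA tumours 2, 3 and 4 they turned for NDUFV2 (0.13), NDUFS1 (-0.076), NDUFAF2 (0.029), NDUFAF5 (0.56), NDUFAF6 (0.64) and NDUFAF8 (0.19), and with array weights for NDUFS1 (-0.055), NDUFAF5 (0.49) and NDUFAF8 (0.069). NDUFA4 turned without tumours 5 and 6 (0.20), in tumours 1 to 3 with or without the replicate block (0.18) and with quantile normalization (0.032), as did NDUFAF8 there (0.036). With 1 tumour left out, the log2 fold changes that crossed 0 were -1.49 to 0.12 for NDUFV2, -1.06 to 0.63 for NDUFAF5, -1.60 to 0.090 for NDUFAF7, -0.17 to 0.16 for NDUFAF8 and -0.42 to 0.23 for NDUFA4. Apart from the trends, whose construction takes out what follows GC or length, the cause was not tested. WWTR1 with 1 tumour left out had a log2 difference of 1.34 to 1.55; with 2 EV tumours the smallest exact p was 0.0714.

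Correlations of deviations from the group means were -0.032 to -0.00058 between tumours sharing a replicate number. Between tumours with different numbers they were -0.047 to 0.049. With 3 numbered tumours in each group, these values cannot tell whether the numbers pair the tumours. The planned edgeR and DESeq2 fits were not run, since the table holds log2 values and not counts. In TAZ-4SA tumours 5 and 6, a floor of 3 reads is 0.840 and 0.917 CPM, against 0.141 to 0.193 CPM in EV tumours, which limits low values there. NDUFA3 was low in the deeper EV libraries as well, at 0.0645 to 0.281 CPM.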
